A study of Mus musculus with 9 samples.

Results

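The AP-1 family was followed here through 10 genes, Fos, Fosb, Fosl1, Fosl2, Jun, Junb, Jund, Atf3, Batf and Maff, chosen by name from the 22136 genes with values in these data. The choice was made with earlier results of these data known. All 10 were found and all 10 passed the filter on low counts, so each was tested. Bulk RNA-seq libraries came from CD45-positive leukocytes sorted out of tumours of YUMM 2.1, a mouse melanoma cell line grown under the skin of immunocompetent C57BL/6J mice. The mice had received an isotype control antibody (IgG), an antibody against the B7 family surface protein B7-H3 (anti-B7-H3) or one that binds PD1, which restrains activated T cells (anti-PD1), and each group had 3 libraries. All 3 groups carried the same tumour line and strain, and no untreated animal, and no sort of a single leukocyte type, was analysed here. Age, sex, dose, day of collection and the alleles of the tumour line are not stated in the labels. Nothing in the labels says that libraries of a group came from separate animals, so p-values measure the spread between these samples, which may be technical.

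AP-1 is a dimer of basic leucine zipper (bZIP) proteins that binds the TPA response element, TGACTCA, and related sites. Fos proteins cannot pair with each other and need a Jun partner, while Jun proteins also pair among themselves. Fos, Jun, Junb and Atf3 are immediate-early genes: stress, growth factors, microbial products or antigen receptor signals switch them on through MAP kinases within minutes, without new protein synthesis. In leukocytes AP-1 takes part in T cell activation and in the inflammatory gene programme of macrophages, and dissociating a tissue into single cells is itself known to induce these genes.

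The promoters of Fos, Jun and Atf3 are shown because these are the members that rose after anti-B7-H3 and because each carries a short element of the kind that CREB, ATF and AP-1 dimers bind, printed in capitals. Each stretch is the 150 bases before the RefSeq start (RefSeq promoter table, build GRCm38.p6), written 5′ to 3′ on the gene's strand. The Fos stretch lies at chr12:85473740-85473889 on the plus strand, between annotated genes, and its capitals are TGACGT at 66 bases before the start. The Jun stretch lies at chr4:95052223-95052372 on the minus strand, in an intron of the antisense gene Junos, and holds TGACATCA at 45 bases. The Atf3 stretch lies at chr1:191183334-191183483 on the minus strand, inside the longer GENCODE gene, with 7 of its bases in an Atf3 exon, and holds TTACGTCA at 10 bases.
Fos: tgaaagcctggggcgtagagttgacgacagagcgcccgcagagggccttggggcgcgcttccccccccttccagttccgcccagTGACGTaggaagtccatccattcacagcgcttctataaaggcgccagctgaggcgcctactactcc
Jun: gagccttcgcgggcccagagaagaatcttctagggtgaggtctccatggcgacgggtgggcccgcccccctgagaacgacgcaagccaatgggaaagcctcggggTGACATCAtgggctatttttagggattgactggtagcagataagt
Atf3: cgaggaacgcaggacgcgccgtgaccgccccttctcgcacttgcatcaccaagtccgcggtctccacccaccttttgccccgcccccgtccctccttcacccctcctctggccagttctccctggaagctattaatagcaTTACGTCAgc
The table held 11 promoters of 300 bases (250 before to 50 after a start) for 9 of the members, 3 of them for Maff. On either strand, TTACGTCA was in 0.501% of all 32544 promoters, TGACATCA in 3.37% and TGACGT, whose matches include those of TGACGTCA and TTACGTCA, in 7.55%. TGACATCA and TGACGT were added to the search after the promoters had been read. TGACGT was also in the Batf promoter and in 1 Maff promoter, TGACATCA in another Maff promoter, and TGACGCAA (0.495% of all) in that of Fosb. The consensus TGACTCA, found in 5.19% of all promoters, and the CArG box that serum response factor binds, found in 1.64%, were in none of these 11 windows. Sequence more than 250 bases before a start was not searched, so a site there would be missed. A match describes letters in a window and is no evidence of binding.

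Libraries held 14487012 to 31533106 estimated counts, of which 14441262 to 31447335 matched a gene, so that 3 counts correspond to 0.0954 to 0.208 CPM of the matched total (counts scaled by library size, with TMM factors for single genes). The markers that define leukocytes, among them Ptprc for CD45, summed to 7862 to 10128 CPM in every library, so the sorted population carried its defining markers throughout. IgG 2 stood apart on the first principal component and had 1896 of the 13178 tested genes at 0. Anti-PD1 3 stood apart on the next and had 1248 at 0, against 224 to 822 in the other 7. The calls of the members and the counts of each list were also made without this pair.

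Against IgG, the AP-1 genes were mostly higher after either antibody. With anti-B7-H3, 3 of the 10 members rose at an adjusted p under 0.05 (edgeR's quasi-likelihood test with Benjamini-Hochberg adjustment over all tested genes), where 0.85% of all tested genes passed and 0.827% passed as higher. They were Atf3, Fos and Jun. With anti-PD1, 4 of 10 rose, where 1.74% of all genes passed and 1.72% passed as higher: Atf3, Fosl2, Fos and Junb. At an unadjusted p under 0.05 there were 6 and 7 of the 10 members, where 8.81% and 10.9% of all genes passed. No member fell in either comparison. Of the 10 members, 7 had every anti-B7-H3 library above every IgG library in CPM (9.96% of all tested genes did) and 8 had every anti-PD1 library above them (9.99% did). The same 8 were apart after anti-PD1 in TPM, a measure of abundance corrected for length, for which the share of all genes was not computed. With anti-B7-H3, TPM overlapped for Fosb, Fosl2 and Jund. There anti-B7-H3 1 had 5.34, 10.5 and 1081, against 5.63 (IgG 2), 11.7 (IgG 1) and 1098.5 (IgG 2). The median log2 difference over the 10 members was 1.02 after anti-B7-H3 and 1.21 after anti-PD1, beside 0.02 and -0.04 over all tested genes. Both comparisons share the 3 IgG libraries. Because the members were chosen with earlier results of these data known, the shares of all genes beside them are descriptive and no independent test. In bulk RNA of a mixed sort, more cells of an expressing type and more RNA per cell cannot be told apart.

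**Figure D1:**
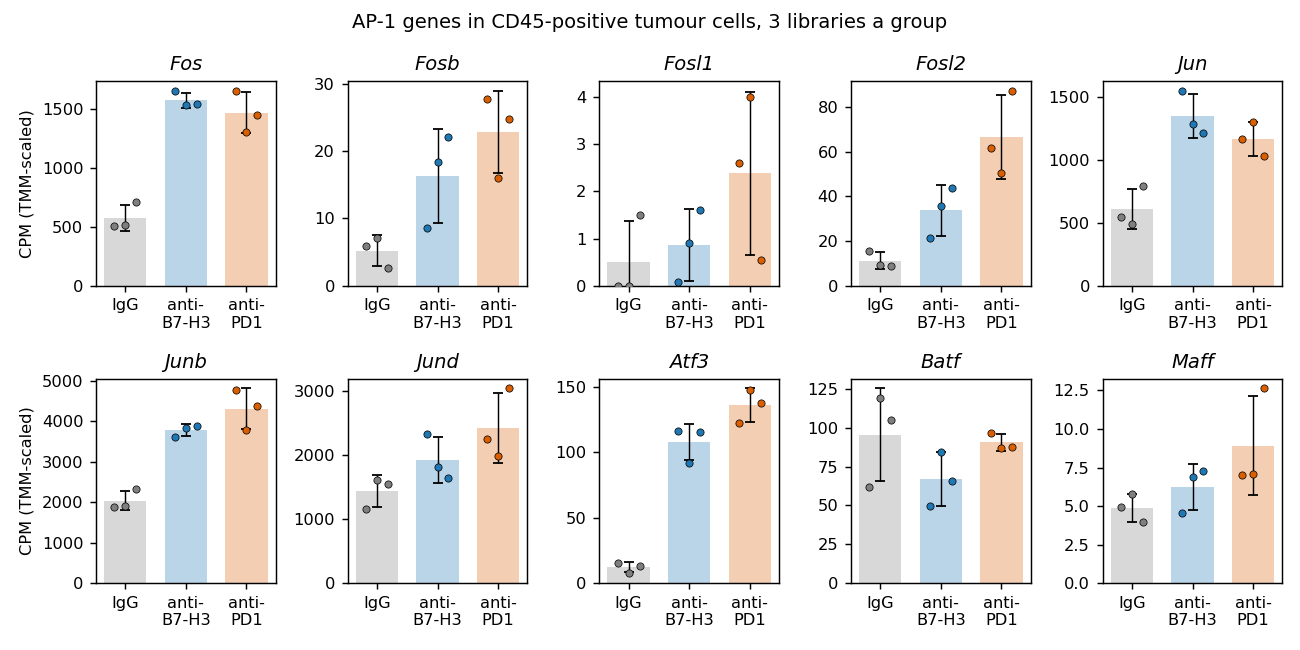
CPM of the 10 AP-1 genes on a linear axis from 0, with 1 panel a gene; points are libraries, bars group means and whiskers the SD (n = 3). For Fos, Jun, Junb, Fosl2 and Atf3 all treated libraries lie above all IgG libraries, whereas for Batf and Fosl1 both treated groups overlap IgG.

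Among the Fos genes, whose proteins need a Jun partner, Fos itself was the most abundant. Fos (chr12:85473890-85477273, plus strand, GRCm38) had 508, 511 and 705 CPM in the IgG libraries, 1644, 1534 and 1535 after anti-B7-H3 and 1650.2, 1301 and 1441 after anti-PD1. The treated libraries lay close together and well above the highest control. The rise was 1.45 ± 0.20 (log2 ± SE) after anti-B7-H3, a 2.73-fold change, and 1.35 ± 0.20 after anti-PD1, a 2.55-fold change (edgeR adjusted p = 0.00646 and 0.00608). The anti-B7-H3 call missed the threshold when only the 6 libraries compared were fitted (adjusted p = 0.0541).

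Fosl2 (chr5:32135801-32157842, plus strand), which encodes the Fos-related protein Fra-2, had 15.5, 9.35 and 8.87 CPM in the controls, 21.5, 35.9 and 43.7 after anti-B7-H3 and 61.8, 50.4 and 87.3 after anti-PD1. In CPM the 3 groups did not overlap and the anti-PD1 libraries were the highest, whereas in TPM the anti-B7-H3 group overlapped both others. It rose by 2.56 ± 0.36 after anti-PD1 (5.91-fold, edgeR adjusted p = 0.00537), while its difference of 1.59 ± 0.35 after anti-B7-H3 did not pass (adjusted p = 0.0826).

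Fosb (chr7:19302696-19310051, minus strand), an early gene best known from lasting stimulation of neurons, had 5.87, 7.12 and 2.70 CPM in the controls, 8.53, 18.3 and 22.1 after anti-B7-H3 and 27.7, 15.9 and 24.9 after anti-PD1. In CPM its lowest treated library was just above its highest control, and in TPM it was below. The differences of 1.64 ± 0.48 and 2.13 ± 0.49 missed the threshold (edgeR adjusted p = 0.257 and 0.0615). Fosl1 (chr19:5447547-5455946, plus strand), which encodes Fra-1, was near the limit of detection, with 0, 0 and 1.505 CPM in the controls, 0.0742, 0.909 and 1.60 after anti-B7-H3 and 2.61, 3.99 and 0.543 after anti-PD1. Its groups overlapped, its intervals ran from -3.27 to 4.84 and from -1.97 to 6.43 on the log2 scale, and 525 of the 822 coding bases of its main transcript lie under exons of Ccdc85b on the other strand. The libraries do not record strand, so reads of the overlapping genes cannot be told apart.

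The Jun genes made up most of the family's RNA. Jun (chr4:95049034-95052222, minus strand), the founding member of the family and a strong activator of transcription, had 549.9, 489 and 794 CPM in the controls, 1553, 1292 and 1216 after anti-B7-H3 and 1173, 1303 and 1034 after anti-PD1. Every treated library was above the controls, of which IgG 3 was the highest. It rose by 1.15 ± 0.22 after anti-B7-H3 (2.22-fold, edgeR adjusted p = 0.0412), and its difference of 0.94 ± 0.22 after anti-PD1 did not pass (adjusted p = 0.0683).

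That call for Jun was a narrow one. Its log2 difference stayed between 1.01 and 1.38 in all 22 alternative settings, but the adjusted p passed in 10 of them and reached 0.21 at most. Of the 9 fits that each left out 1 library, only that without IgG 3 kept it. Without IgG 2 and anti-PD1 3 together it was also lost (adjusted p = 0.144).

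Junb (chr8:84974484-84978718, minus strand), which can oppose Jun at some promoters and is induced in activated T cells, had 1884, 1919.7 and 2326 CPM in the controls, 3615, 3834 and 3880.2 after anti-B7-H3 and 4768, 3781 and 4374 after anti-PD1. No treated library reached down to the controls. It rose by 1.08 ± 0.19 after anti-PD1 (2.11-fold, edgeR adjusted p = 0.0163), and the difference of 0.89 ± 0.19 after anti-B7-H3 did not pass (adjusted p = 0.0678). The anti-PD1 call was lost without anti-PD1 1 (adjusted p = 0.101), without anti-PD1 3 (0.063), without both IgG 2 and anti-PD1 3 (0.12) and with only the 6 libraries compared (0.0529).

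Jund (chr8:70698949-70700616, plus strand), the Jun gene that resting cells express, had 1157, 1618 and 1558 CPM in the controls, 2331, 1818 and 1640.2 after anti-B7-H3 and 2244, 1985 and 3039 after anti-PD1. In CPM its lowest treated library was only just above the highest control, and in TPM it was below. Jund passed in neither comparison (0.42 ± 0.24 and 0.75 ± 0.24, edgeR adjusted p = 0.695 and 0.212). Of its 1026 coding bases, 877 lie under an antisense gene whose reads cannot be told apart from its own.

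Atf3 showed the largest fold of the called members. Atf3 (chr1:191170296-191218039, minus strand), a stress-induced bZIP factor that in macrophages restrains the transcription of inflammatory genes, had 15.2, 8.17 and 13.5 CPM in the controls, 116, 92.1 and 116 after anti-B7-H3 and 123, 148 and 138 after anti-PD1. The lowest treated library was several times the highest control. The rise was 3.13 ± 0.26 after anti-B7-H3 (8.77-fold, edgeR adjusted p = 0.00104) and 3.46 ± 0.27 after anti-PD1 (11.0-fold, adjusted p = 0.00037). Both calls held in all 22 alternative settings.

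Batf and Maff did not pass the test. Batf (chr12:85686669-85709087, plus strand), a bZIP protein without a transactivation domain that pairs with Jun proteins and acts with IRF4 in T cells and with IRF8 in dendritic cells, had 62.0, 119 and 105 CPM in the controls, 49.9, 84.6 and 65.6 after anti-B7-H3 and 96.8, 87.2 and 87.7 after anti-PD1. Both treated groups overlapped the controls, with differences of -0.51 ± 0.27 and -0.07 ± 0.27 (95% intervals -1.11 to 0.08 and -0.67 to 0.52, edgeR adjusted p = 0.66 and 0.954). The sign after anti-PD1 turned to 0.15 without IgG 2, to 0.14 without IgG 2 and anti-PD1 3, and to 0.20 in limma-voom. Maff (chr15:79346621-79359076, plus strand), a small Maf protein that lacks a transactivation domain and pairs with CNC factors such as NRF2, had 4.91, 5.76 and 3.94 CPM in the controls, 4.53, 6.87 and 7.31 after anti-B7-H3 and 7.04, 7.10 and 12.6 after anti-PD1. All its anti-PD1 libraries were above the controls, but its difference of 0.87 ± 0.52 did not pass (adjusted p = 0.604).

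**Figure D2:**
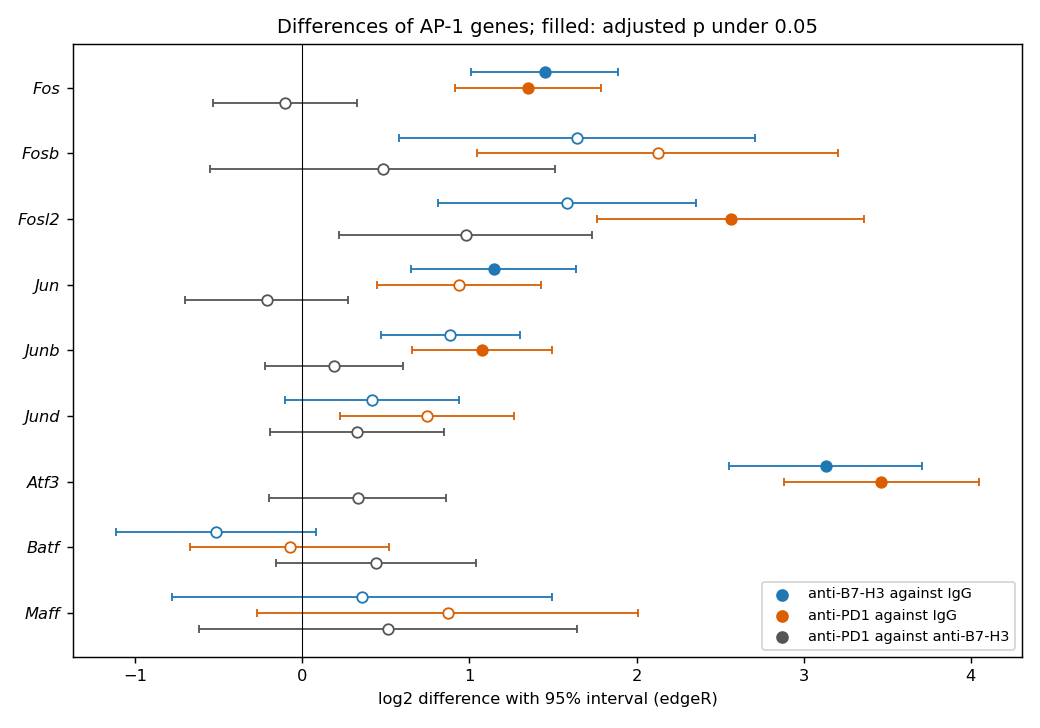
Log2 differences of 9 AP-1 genes in the 3 comparisons with 95% intervals from edgeR; filled points have an adjusted p under 0.05, and Fosl1 is left out for its wide intervals. Fos and Atf3 are filled in both comparisons with IgG, Jun only after anti-B7-H3, Fosl2 and Junb only after anti-PD1, and no gene is filled between the antibodies.

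Between the antibodies no member passed the test, and no gene in the whole table did (0 of 13178, 0%). At an unadjusted p under 0.05, 1 member (Fosl2) and 425 genes (3.23%) passed. For Fosl2, Atf3 and Batf every anti-PD1 library was above every anti-B7-H3 library in CPM, as for 6.4% of all genes. In TPM the antibody groups overlapped for each of these genes. DESeq2 and limma-voom called 0 members, with 15 and 2 genes in all. Fosl2 was 1.97-fold higher after anti-PD1 than after anti-B7-H3 (0.98, 95% interval 0.22 to 1.74; unadjusted p = 0.0161, edgeR adjusted p = 1.00). The intervals of the other genes were -0.53 to 0.33 for Fos, -0.70 to 0.28 for Jun, -0.22 to 0.60 for Junb, -0.19 to 0.85 for Jund and -0.20 to 0.86 for Atf3. They were -0.16 to 1.04 for Batf, -0.55 to 1.52 for Fosb, -0.62 to 1.65 for Maff and -2.63 to 5.52 for Fosl1. Differences within those bounds are compatible with 3 libraries a group. Jun passed against IgG after anti-B7-H3 alone, and Fosl2 and Junb after anti-PD1 alone, but none of them was shown to differ between the treatments.

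Levels of different genes were compared per coding length, as TPM, a measure of abundance that corrects for length. Summed over the 10 genes, the family held 3170.5 ± 214 TPM in the controls, 5359 ± 854 after anti-B7-H3 and 5930.1 ± 621 after anti-PD1 (mean ± SD, n = 3). Every treated library, from 4383 TPM up, was above every control, of which the highest was 3404. Junb came first and Jund next in all 9 libraries. In the controls Junb had 1270.4 ± 81.0 TPM and Jund 909.9 ± 164, followed by Jun with 388 ± 41.7 and Fos with 315 ± 8.68. With anti-B7-H3 Jun (813 ± 64.6) and Fos (815 ± 128) did not differ beyond their spread, and their order changed from library to library. Batf (246 ± 79.6 TPM in the controls) was next in most libraries, above Fos in IgG 2 and below Atf3 in anti-B7-H3 1. Atf3 went from 17.8 ± 6.07 TPM to 150.5 ± 35.1 and 186 ± 12.0, while Fosl2, Maff, Fosb and Fosl1 stayed at 56.1 TPM or below in every library.

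**Figure D3:**
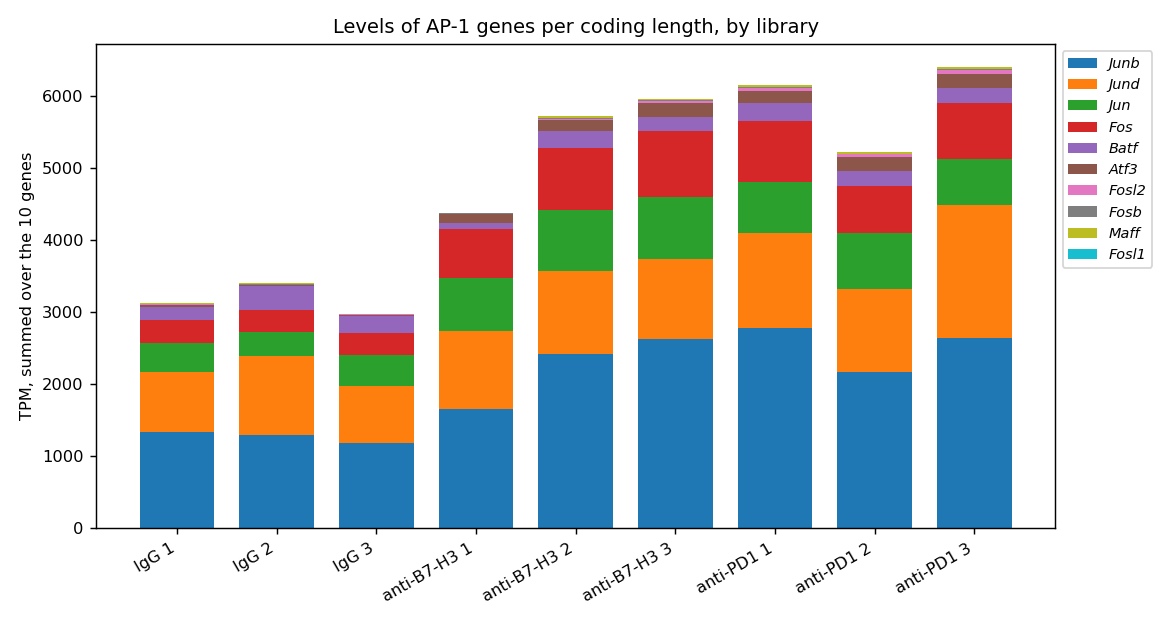
TPM of the 10 AP-1 genes stacked for each of the 9 libraries, on a linear axis from 0. Junb and Jund are the largest blocks throughout, and the sums with either antibody exceed every control.

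Shares of the family's TPM were compared next. Fos held 10.3, 8.96 and 10.6% of the family's TPM in the controls, 15.3, 14.9 and 15.4% after anti-B7-H3 and 13.8, 12.7 and 12.1% after anti-PD1. The 3 groups did not overlap. For each pair the two-sided exact permutation test gave p = 0.1, the smallest that 3 against 3 libraries allow, so none could pass 0.05. Atf3 went from 0.566 ± 0.207% to 2.80 ± 0.339% and 3.18 ± 0.523%. Each antibody group was apart from the controls (exact permutation p = 0.1), while the antibody groups overlapped (exact permutation p = 0.4). Batf's share was 7.70 ± 2.08% in the controls, 3.20 ± 1.13% and 3.79 ± 0.438% with the antibodies. Each antibody differed from the controls at an exact permutation p = 0.1, while the CPM of Batf overlapped the controls in both comparisons. Between the antibodies its shares overlapped (exact permutation p = 0.6). Jun, Junb and Jund together held 81.0 ± 1.24% in the controls, 77.9 ± 1.26% after anti-B7-H3 and 78.9 ± 1.14% after anti-PD1 (exact permutation p = 0.1 and 0.2). Those differences of -3.11 and -2.16 percentage points were -5.74 and -3.87 from CPM, and -1.39 and -1.23 without Jund. A share falls when other members rise. The ratio of Fos-family to Jun-family TPM was 0.128 ± 0.0104 in the controls, 0.203 ± 0.0062 and 0.176 ± 0.0118 with the antibodies.

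Fosb was the member with the most transcripts in the files, 6, of which Fosb-201 (1017 coding bases) and Fosb-206 (714) carried most of its TPM. FosB is known in a full-length form and in a shorter splice form that lacks the carboxy-terminal part. Fosb-201 averaged 2.07 TPM in the controls (range 0 to 3.54), 8.92 after anti-B7-H3 (1.52 to 15.3) and 12.8 after anti-PD1 (7.08 to 16.5). Fosb-206 averaged 1.96, 1.86 and 1.19 TPM. The ranges of Fosb-201 after anti-PD1 and in the controls did not overlap, but the transcripts share most of their sequence and the reads are few, and the split was not tested.

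The genes around AP-1 were examined as lists, which were also chosen with earlier results of these data known. Among 23 upstream genes, the MAP kinases and the promoter factors through which Fos and Jun are induced, 0 passed after anti-B7-H3 (2 of them, Map3k8 and Srf, had an unadjusted p under 0.05) and 1 after anti-PD1. The median of the list was 0.08 and 0.11 (log2), near the 0.02 and -0.04 of all tested genes. Map3k8, the kinase TPL2 that links Toll-like and TNF receptors to ERK in macrophages, had 53.3, 33.4 and 39.1 CPM in the controls and 117, 119 and 104 after anti-PD1. Its rise there was 1.43 ± 0.22 (edgeR adjusted p = 0.00776), and its 80.4, 73.3 and 93.4 CPM after anti-B7-H3 were also all above the controls without passing (0.97 ± 0.22, adjusted p = 0.0874). For Srf, the serum response factor that acts on the Fos promoter, the differences were 0.55 ± 0.23 and 0.52 ± 0.23 (adjusted p = 0.516 and 0.44).

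Of 14 feedback inhibitors of MAP kinases and early mRNAs, 1 rose after anti-B7-H3 and 3 after anti-PD1, with list medians of 0.95 and 1.44. Zfp36, which encodes tristetraprolin, a protein that destabilises AU-rich mRNAs such as those of Fos and Tnf, had 483, 408 and 589.5 CPM in the controls, 1027, 1338 and 1318 after anti-B7-H3 and 1645, 1373 and 1736 after anti-PD1. It rose by 1.31 ± 0.21 and 1.68 ± 0.21 (edgeR adjusted p = 0.0153 and 0.0029). The phosphatases of p38 and JNK, Dusp1 and Dusp10, rose after anti-PD1 by 1.28 ± 0.21 and 1.56 ± 0.27 (adjusted p = 0.0118 and 0.0163). With anti-B7-H3 their differences of 1.00 ± 0.21 and 1.22 ± 0.27 did not pass (adjusted p = 0.0651 and 0.0848). Without IgG 2 and anti-PD1 3, Zfp36 no longer passed after anti-B7-H3 (adjusted p = 0.0634), and after anti-PD1 Dusp10 was lost (0.0525) while Spry1 passed.

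Of 17 tested immediate-early genes outside AP-1, 4 rose after anti-B7-H3 (Ier3, Klf4, Nr4a1 and Sgk1) and 9 after anti-PD1 (those 4 with Gadd45b, Rhob, Ier5, Klf6 and Egr2), and the list medians were 0.83 and 1.12. Nr4a1, the orphan nuclear receptor induced by antigen receptors, had 352, 307 and 345 CPM in the controls, 710.1, 1027 and 1377 after anti-B7-H3 and 1467, 1013 and 1450.1 after anti-PD1, which is 1.63 ± 0.26 and 1.97 ± 0.26 on the log2 scale (edgeR adjusted p = 0.015 and 0.00382). Ier3, an early gene of stress and survival signals, had 11.7 to 17.7 CPM in the controls, 56.8 to 92.4 after anti-B7-H3 and 109 to 132 after anti-PD1. Klf4, a zinc finger factor of monocytes and macrophages, had 3.16 to 4.83, 21.9 to 29.8 and 24.1 to 36.9 CPM. For each of these 3 genes both treated groups lay wholly above the controls. Without IgG 2 and anti-PD1 3, 3 genes of the list were called after anti-B7-H3 (Nr4a1 and Sgk1 were lost, and Rhob passed) and 6 after anti-PD1 (Egr2, Ier5 and Klf6 were lost).

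Genes known as AP-1 targets had the largest median differences of the pathway lists. Of 20 tested, the same 6 rose in both comparisons, Mmp12, Mmp13, Vegfa, Spp1, Il1b and Cxcl2, and the list medians were 2.31 and 2.84. Il1b, which encodes the cytokine interleukin-1 beta, had 35.3, 6.99 and 48.3 CPM in the controls, 298, 350.2 and 509 after anti-B7-H3 and 977, 824 and 1139 after anti-PD1. Cxcl2, a neutrophil chemoattractant, had 4.58 to 10.6 CPM in the controls, 57.0 to 68.9 after anti-B7-H3 and 169.7 to 212 after anti-PD1. Vegfa, the angiogenic growth factor, had 14.4 to 17.5, 52.1 to 69.6 and 75.3 to 107 CPM. For Il1b, Cxcl2 and Vegfa the 3 groups did not overlap, yet none passed between the antibodies: for Cxcl2 the difference was 1.55 ± 0.28 (unadjusted p = 0.000157, edgeR adjusted p = 1.00). Mmp13, encoding a collagenase with a classical AP-1 site in its promoter, had 3 counts in the 3 controls together, against 666 after anti-B7-H3, a ratio of 163 (95% counting interval 55.4 to 790.2) after scaling. Without IgG 2 and anti-PD1 3 these 6 were called again in both comparisons, and Hmox1, Plaur, Ptgs2 and Timp1 passed as well. Many of these targets are products of macrophages and neutrophils, whose markers also differed between the groups.

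Among the other bZIP genes, Nfe2l2, which encodes NRF2, the regulator of the oxidative stress response, rose after anti-PD1 from 63.0 ± 3.07 to 124 ± 14.2 CPM (edgeR adjusted p = 0.0292), a call that was lost without IgG 2 and anti-PD1 3 (adjusted p = 0.14). Of 5 partners of Batf and AP-1 at composite sites, 0 passed after anti-B7-H3 (2, Irf4 and Irf8, had an unadjusted p under 0.05) and Irf4, which is also a plasma cell marker, rose after anti-PD1 from 8.89 ± 4.51 to 36.0 ± 3.71 CPM (adjusted p = 0.0307). Between the antibodies no gene of any of these lists passed.

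**Figure D4:**
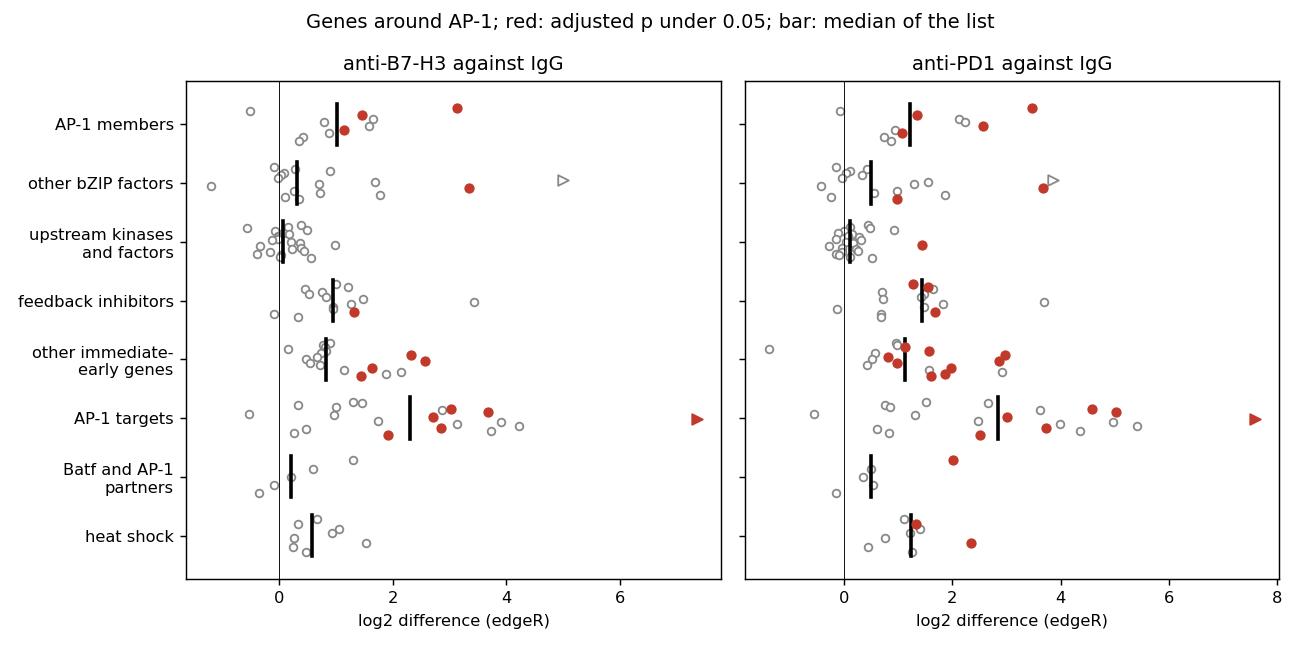
Log2 differences from IgG of the AP-1 genes and of 7 lists around them, 1 point a tested gene; red marks an adjusted p under 0.05, black bars the list medians, and triangles Batf2 (a lower bound) and Mmp13, which had 0 and 3 counts in the controls and are drawn from pooled counts. Targets, early genes and feedback inhibitors lie mostly to the right of 0, and upstream genes lie around it.

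Macrophage markers moved with the AP-1 genes. The summed level of 12 macrophage markers was 123 to 314 CPM in the controls, 1753 to 2713 after anti-B7-H3 and 1299 to 1926 after anti-PD1, and 8 of the 12 rose in each comparison. Without IgG 2 and anti-PD1 3, 7 and 8 of the 12 were called. Of 7 tested neutrophil markers, 3 rose after anti-B7-H3 and 4 after anti-PD1, and their list summed to 62.5 to 116, 228 to 420.2 and 597 to 881 CPM. Of 8 markers each for monocytes and dendritic cells, Hp and Mgl2 rose in both comparisons. The sums of both lists were also higher in every treated library than in the controls. Monocyte markers summed to 820 to 1407 CPM in the controls, 1790 to 2366 after anti-B7-H3 and 1624 to 2445 after anti-PD1. Dendritic cell markers summed to 193 to 384, 554 to 892 and 647 to 738 CPM. Of 7 plasma cell markers 3 rose after anti-PD1. None of 10 T cell markers passed, and their sum was 4972 to 7152 CPM in the controls, 3915 to 5643 after anti-B7-H3 and 4261 to 5723 after anti-PD1. The B cell, NK cell and mast cell lists had no call either, and their sums overlapped the controls, but their directions differed. While 1 of the 10 T cell markers was positive in each comparison, all 8 NK cell markers were (list medians 0.88 and 0.55). Of 8 B cell markers 8 were positive after anti-B7-H3 and 5 after anti-PD1 (medians 2.31 and 0.97). For 7 mast cell markers these counts were 7 and 1 (1.08 and -0.32). Melanoma markers summed to at most 16.3 CPM in any library, with Dct at 0 in every group. Fibroblast markers were low but also higher in every treated library, at 0.495 to 1.60 CPM in the controls, 10.1 to 14.5 after anti-B7-H3 and 14.8 to 29.9 after anti-PD1, with Dcn at 0 in the IgG and anti-PD1 groups and 0 of 3 tested genes called. Erythroid markers summed to 7.49 to 435 CPM in the controls, highest in IgG 3, and to 2.06 to 30.3 in the treated libraries, and 0 of 5 tested genes passed. The part of these markers in the AP-1 differences was not tested.

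**Figure D5:**
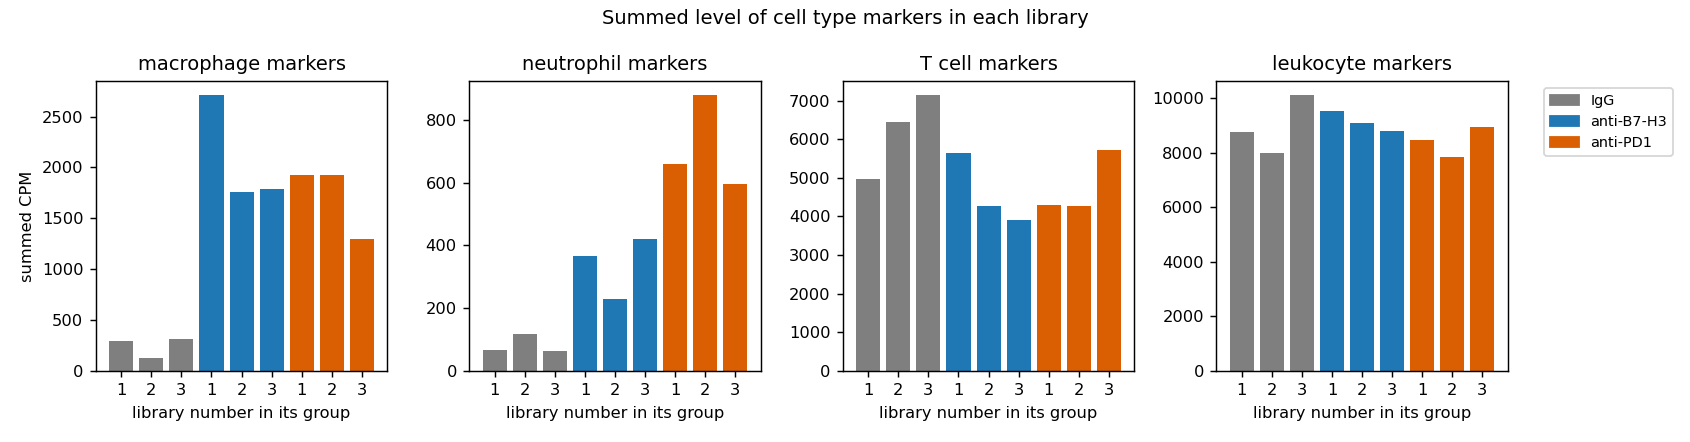
Summed CPM of 4 marker lists in each library, on linear axes from 0 that differ between panels; colours give the group. Macrophage and neutrophil sums are higher in all 6 treated libraries than in the controls, and leukocyte sums lie between 7862 and 10128 CPM.

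Heat shock genes, which with Fos and Jun respond to warm dissociation of tissue, were also examined. Of 8, 0 passed after anti-B7-H3 (3, Hspb1 and the near-identical pair Hspa1a and Hspa1b, whose reads may be split between them, had an unadjusted p under 0.05) and 2 after anti-PD1, with list medians of 0.57 and 1.23. Hspa1b had 3844 to 8296 CPM in the controls, 9947 to 11477.5 after anti-B7-H3 and 10759 to 16729 after anti-PD1. Hspa1a had 2598 to 6556, 7445 to 8993 and 8687 to 14150 CPM. Every treated library of this pair was above the controls, but neither gene passed in either comparison. Hspb1, a small heat shock protein, had 10.3, 13.3 and 26.2 CPM in the controls, 50.5, 54.2 and 38.6 after anti-B7-H3 and 44.8, 133 and 75.1 after anti-PD1. Its rise after anti-PD1 was 2.35 ± 0.44 (edgeR adjusted p = 0.0236), and all treated libraries were above the controls. Hsp90aa1, the inducible HSP90, had 868 to 1298 CPM in the controls and 1792 to 3865 after anti-PD1 (1.32 ± 0.28, adjusted p = 0.0432). Neither passed without IgG 2 and anti-PD1 3 (adjusted p = 0.125 and 0.14). Whether handling of the tissue had a part in the AP-1 levels was not tested.

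The genes whose log2 CPM followed a member most closely over the 9 libraries were found by the root mean square difference after centring each gene, among 9632 candidates with a mean of at least 5 CPM. Nearest to Fos were Gsn (0.198), Ppp1r15a (0.211) and Eif4ebp1 (0.216), and its nearest family member was Jun (0.231). Nearest to Jun were Btg2 (0.14), Eif4ebp1 (0.16) and H2-DMa (0.164), and nearest to Batf were Prr13 (0.129), Faim (0.142) and Slc41a3 (0.166). Atf3 had more distant neighbours, Fcgr2b (0.247), Il1rn (0.361) and Ccl6 (0.421), and its nearest member, Fosl2, was at 0.773. Fcgr2b, the inhibitory Fc receptor of myeloid and B cells, had 16.7 to 31.3 CPM in the controls, 193 to 259 after anti-B7-H3 and 185 to 249 after anti-PD1, the same step between controls and treated libraries as Atf3. These likenesses describe 9 libraries that share groups and depths, and say nothing of shared control.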

How the data were processed

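Bulk RNA was sequenced from sorted leukocytes (SMART-Seq v4 and Nextera XT, per the labels' protocols, kits that do not mark strand). The deposited files give estimated counts and TPM for 58083 coding transcripts, per the file headers. The build is GRCm38 and reads were checked in FastQC 0.11.8, per the submitters' processing notes, while the quantifier is not given in the sources used here. Of the transcripts, 57409 matched GENCODE M21, and the 674 others were not used. Estimated counts were summed per gene and rounded, and deposited TPM values were summed per gene. Lengths are coding lengths. All 9 libraries entered 1 edgeR 4.0.16 fit (R 4.3.3, TMM, filterByExpr, robust quasi-likelihood, no covariate), with Benjamini-Hochberg adjustment over 13178 genes at 0.05. DESeq2 1.42.0 and limma 3.58.1 (voom) were alternatives. Family shares were tested by exact permutation. The members and gene lists were chosen with earlier results of these data known. Genes are named by rule: every member, up to 4 genes of a list with the smallest p in each comparison, all genes called in a list, and the 3 nearest to Fos, Jun, Atf3 and Batf. Floors and counting intervals cover counting error only, as reads carry no molecular identifiers. No protein sequences were compared. 1 result is not reported here.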

Additional observations from a re-analysis of the deposited data

How the results depend on the processing

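Under 22 alternative settings, 1 of them (without IgG 2 and anti-PD1 3) chosen after seeing the data, the rises of Atf3 in both comparisons and of Fos and Fosl2 with anti-PD1 passed in every setting. Members called with anti-B7-H3 (3) became 6 in DESeq2, 5 with no filter and 1 with only the 6 libraries compared, and 2 to 4 with 1 library left out. With anti-PD1 (4) they became 7 in DESeq2, 6 with no filter and 3 to 5 with 1 library left out, and between the antibodies 0 in every setting. All genes called ranged from 44 to 394 with anti-B7-H3 (112), from 113 to 660 with anti-PD1 (229) and from 0 to 15 between the antibodies, with DESeq2 giving the highest of each. Scaling by library size alone moved the median of all genes after anti-PD1 from -0.04 to -0.14. Correlations between same-numbered libraries of different groups ran from -0.12 to 0.16, beside -0.14 to 0.12 for the other pairs. The labels do not say whether replicate numbers are shared between groups, and these correlations cannot settle it. With the replicate block, 2 and 3 members and 64 and 127 genes were called, and Jun (adjusted p = 0.164) and Junb (0.078) were lost. Fosl1 with anti-B7-H3 turned to -0.067 with length-scaled TPM counts and to -0.0057 without anti-B7-H3 3, in a range up to 7.39 with 1 library left out (without IgG 3, where both other controls are at 0). Batf with anti-PD1 turned to 0.20 in limma-voom, to 0.15 without IgG 2, to 0.0004 without IgG 3 (-0.28 to 0.15 with 1 library left out) and to 0.14 without IgG 2 and anti-PD1 3. Fosl1 could not be fitted under a filter of 5 CPM in 3 libraries, nor Junb without the 20 most abundant genes. The Fos share between the antibodies (-2.37 percentage points) was -2.63 in CPM and -2.84 to -1.98 with 1 library left out. The share of the Jun genes with anti-B7-H3 (-3.11) was -5.74 in CPM and -1.39 without Jund, and with anti-PD1 (-2.16) it was -3.87 in CPM. The causes were not tested. Fosl1, at 0 in IgG 1 and IgG 2, is limited by its low counts.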
